A study of Mus musculus with 8 samples.

Results

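The c-Jun binding sites of mouse primed pluripotent cells were examined at 49 genes of the actin cytoskeleton and of focal adhesions, out of 21000 protein-coding genes with a curated RefSeq transcript. The 49 genes were listed by name for what their proteins do, with earlier results of these data known. A gene was counted as having a peak when the centre of a c-Jun peak lay within 10 kb of one of its transcription start sites (TSSs) in mm10. By this count 30 of the 49 genes had a peak in EpiSCs, where 21.8% of all protein-coding genes did, and 17 had one in kEpiSCs, where 8.27% did. In both lines 15 had a peak, against 6.58% of all genes. In at least 1 line 32 had a peak, against 23.5% of all genes, and 17 had none in either.

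c-Jun was measured by ChIP-seq, in which DNA fragments bound to a protein are pulled down with an antibody, sequenced and mapped, and compared with input DNA that was not pulled down. The wild type line was EpiSC, primed epiblast stem cells grown without feeder cells in a medium with Activin A and bFGF, which the labels give as from the cross CBA/CaJ X C57BL/6J and the study's methods as from 129 females and OG2 males. The other line, kEpiSC, is the same kind of primed cell carrying a lentiviral Klf4 transgene selected with G418. The study describes this transgene as driven by a CAG promoter, beside an Oct4-GFP reporter. OG2 is the study's name for that reporter, so by its methods the EpiSCs carried the reporter too. Klf4 can convert primed cells to the naive state, and the kEpiSCs measured here were kept in primed medium. Each line had 2 c-Jun ChIP and 2 input libraries, 8 in all, but 1 peak list, with 16166 peaks in EpiSCs and 6032 in kEpiSCs. For this reason the values below carry no replicate spread. Every interval is a 95% Wilson interval, the limit given for a count of 0 is the share that 3 counts would make, both cover counting error only, and no difference between the lines or between groups of genes was tested. The antibody is labelled c-Jun, although one protocol text in the labels names H3K27ac.

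Actin filaments grow by addition of monomers, are bundled by crosslinkers such as alpha-actinin and filamin, and are pulled by non-muscle myosin II. At focal adhesions, integrins are tied to these filaments by plaque proteins such as talin, vinculin and paxillin, and the kinases FAK and Src signal from there. The kinases ROCK and LIMK act on myosin and on cofilin and so set where filaments contract and last. c-Jun is a subunit of AP-1, a dimer of Jun and Fos family proteins that binds the palindrome TGACTCA or its reverse complement TGAGTCA, and many actin genes are also known targets of SRF, which binds the CArG box.

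The sequences under the highest-scoring EpiSC peaks near these genes, 1 peak for each of 8 genes, are given as the plus strand of the RefSeq GRCm38.p6 assembly (mm10), 60 bases each, because they show which of the highest peaks carry an AP-1 site. Capitals mark the AP-1 site nearest to the summit. The peaks of Limk1, Actg1 and Tln1 held no AP-1 site in the central 200 bp, and their sequences are centred on the summit and have no capitals.
Bcar1, chr8:111748074-111748133: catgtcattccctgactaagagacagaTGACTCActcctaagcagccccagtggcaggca
Rock2, chr12:16894507-16894566: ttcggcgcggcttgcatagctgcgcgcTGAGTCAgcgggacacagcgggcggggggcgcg
Tpm1, chr9:67045488-67045547: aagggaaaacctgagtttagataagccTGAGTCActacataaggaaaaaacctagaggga
Rac1, chr5:143518294-143518353: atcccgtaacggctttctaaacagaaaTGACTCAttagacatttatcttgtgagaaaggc
Limk1, chr5:134695324-134695383: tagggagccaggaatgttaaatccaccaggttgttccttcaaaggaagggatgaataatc
Actg1, chr11:120353849-120353908: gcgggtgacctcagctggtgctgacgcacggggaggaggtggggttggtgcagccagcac
Tln1, chr4:43564413-43564472: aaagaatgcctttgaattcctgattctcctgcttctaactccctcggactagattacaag
Myh9, chr15:77836280-77836339: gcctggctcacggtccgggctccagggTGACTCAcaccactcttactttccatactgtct

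The site lay close to the summit at Bcar1 (10 bp), Tpm1 (18 bp) and Rock2 (34 bp), and farther from it at Myh9 (138 bp) and Rac1 (148 bp). The Tpm1 peak held 2 AP-1 sites in its central 200 bp. The called Actg1 peak, which is wider than the window searched, held 1 AP-1 site outside that window.

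At 5 of the 15 peaks at promoters, those of Rock2, Ezr, Flnc, Myl12a and Zyx, the central 200 bp held an AP-1 site, and these are shown as the members whose start site itself lies beside a c-Jun peak with an AP-1 site. Flnc had 3 sites, and the stretch that spans them is given whole. The first of them starts 2 bp before the called peak. For Ezr, Myl12a and Zyx 30 bases around the site are given. The Myh10 sequence is the only one near these genes whose peak held the longer CRE-type site TGACGTCA, which AP-1 dimers of Jun and ATF proteins can bind, and capitals mark it.
Flnc, chr6:29432446-29432584: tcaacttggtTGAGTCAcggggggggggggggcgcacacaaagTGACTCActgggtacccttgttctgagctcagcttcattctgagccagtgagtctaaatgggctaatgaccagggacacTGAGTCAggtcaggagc
Ezr, chr17:6782794-6782823: gcggtcccaagaTGAGTCAcgcccgatcgg
Myl12a, chr17:71002652-71002681: aggaagctagggTGACTCActgtctaggtc
Zyx, chr6:42349695-42349724: gagtgcggacagTGAGTCAgttctccagca
Myh10, chr11:68691436-68691495: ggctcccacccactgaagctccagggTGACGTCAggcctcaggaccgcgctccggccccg

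The 30 genes with an EpiSC peak made up 61.2% of the 49 (47.2 to 73.6), against the 21.8% of all genes. The 49 genes were longer than most, with a median length of 33376 bp against 17742 bp over all genes, and more of them had more than 1 annotated TSS (28.6% against 17.1%). Over protein-coding genes of the same length, taken from 10 classes of gene length, the share was 23.6%, which corresponds to 11.6 genes of 49, and the members' share was 2.60 times that. In kEpiSCs 34.7% of the 49 genes had a peak (22.9 to 48.7), against 8.27% of all genes and 9.06% of genes of the same length, a ratio of 3.83. Both lines shared a gene with a peak for 30.6% of the 49 (19.5 to 44.5), against 6.58% of all genes and 7.24% at the same length. The number of TSSs was not part of the length comparison, and its part in the result was not tested. Because the 49 genes were chosen with earlier results of these data known, these shares describe the list and are not independent evidence.

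**Figure D1:**
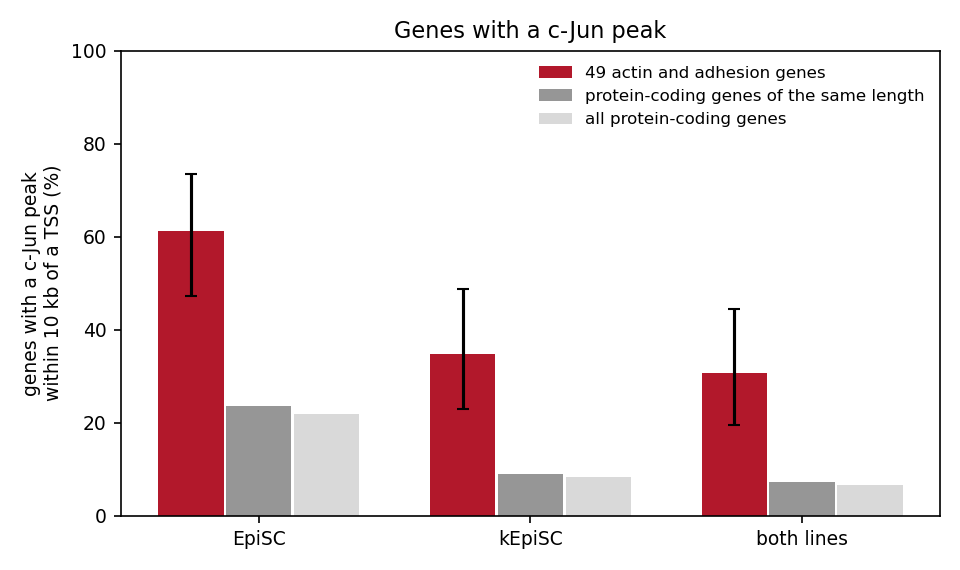
The bars give the percentage of genes that had a peak by the 10 kb rule in EpiSCs, in kEpiSCs and in both lines, for the 49 genes (red, with 95% Wilson intervals), for protein-coding genes of the same length (dark grey) and for all protein-coding genes (light grey). The members' bar reaches 61.2% in EpiSCs, against 23.6% at the same length, and 34.7% in kEpiSCs, against 9.06%.

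Several of the 49 genes had more than 1 peak. In EpiSCs 10 genes had 1 peak, 13 had 2 and 7 had 3 or more, so that 40.8% had at least 2, against 5.78% of all genes. These 2 shares were not matched on gene length or on the number of TSSs. The genes with the most peaks were Flnc and Limk2 with 4 each, and Actn4, Bcar1, Capzb, Pfn1 and Src had 3 each. The 59 pairs of a gene and a peak came from 58 peaks, because the peak at chr17:70993488-70993754 lies within 10 kb of both Myl12a and Myl12b. In 55 pairs no other protein-coding gene had a nearer TSS. The 4 exceptions were the shared peak, which is nearer to Myl12b than to Myl12a, a Tln1 peak nearer to Creb3, and 2 Pfn1 peaks nearer to Eno3 and to Slc25a11. Each of the 30 genes had at least 1 peak nearest to its own TSS. In kEpiSCs 16 of the 17 genes had one, and the only kEpiSC peak of Tln1 is nearer to Creb3. Counted over gene bodies in place of TSS windows, EpiSC peaks fell at 2.95 per 100 kb in the 49 genes and at 0.843 per 100 kb in all protein-coding genes, and kEpiSC peaks at 0.893 and 0.300 per 100 kb.

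The peaks near these genes were about as high as other peaks near genes. The height is the authors' fold enrichment at the summit, with 1 added to ChIP reads and to the local background, so small read numbers pull it toward 1. The 58 EpiSC peaks had a median fold of 5.97 with quartiles of 4.68 and 7.01 and a range of 3.51 to 12.6, against a median of 5.82 over the 5180 peaks within 10 kb of any protein-coding TSS and 6.16 over the whole list. The reads at the summit, solved from the fold and its p-value, had a median of 10 and ran from 5 to 28. In kEpiSCs the 20 peaks had a median fold of 6.30, between 3.69 and 10.8, with 8 to 30 reads at the summit, against 6.70 over peaks near protein-coding genes and 7.23 over the list. Reads are given as whole reads, and in kEpiSCs each is worth 0.775 on the scale of the fold and of the background, while in EpiSCs each is worth 1.

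**Figure D2:**
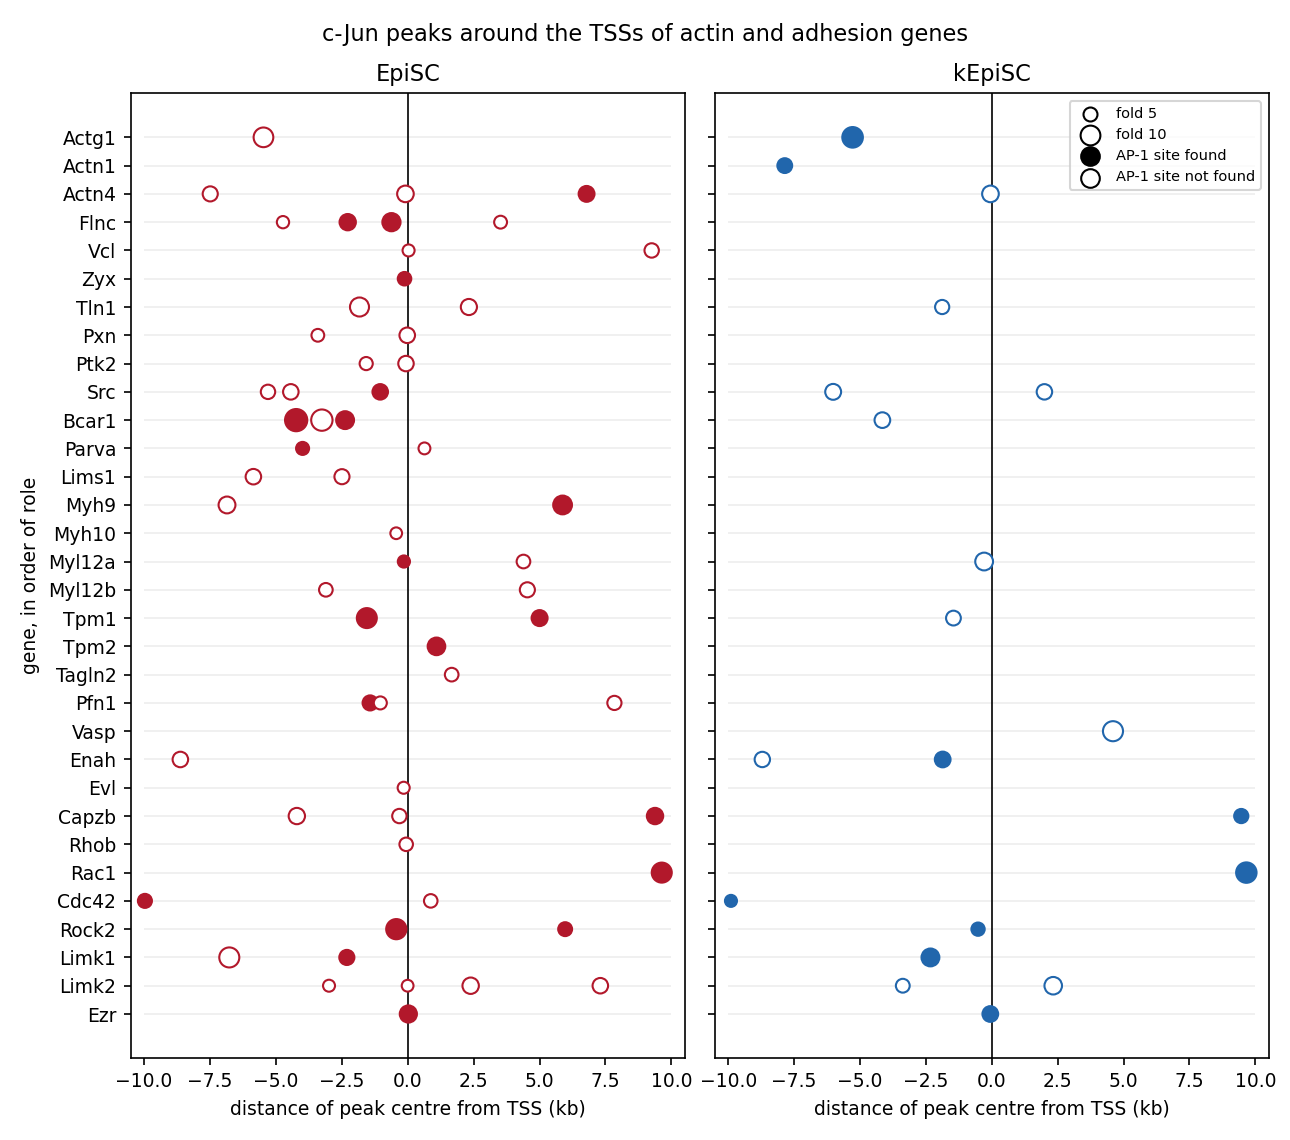
Each circle is a pair of a gene and a c-Jun peak, for EpiSCs (left, red) and kEpiSCs (right, blue). It is placed by the distance of the peak centre from the nearest TSS of the gene in kb (upstream negative). Genes are in order of role, and the area of the circle is in proportion to the fold. Filled circles have an AP-1 site in the central 200 bp. The EpiSC panel holds 39 pairs with the peak upstream and 20 with it downstream of the TSS. The peak shared by Myl12a and Myl12b is drawn for each gene.

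Of the actins, Actg1, which encodes cytoplasmic gamma-actin, had a peak in both lines and Actb, which encodes beta-actin, had none. The Actg1 peak lay 5472 bp upstream between genes (chr11:120353798-120354136), with a fold of 9.91 over 15 reads in EpiSCs, and its kEpiSC partner had a fold of 10.8 over 21 reads. The EpiSC peak nearest to Actb was 14128 bp away with a fold of 3.60 over 9 reads, and the nearest kEpiSC peak was 64403 bp away. So the genes for the cytoplasmic actins stood on different sides of the 10 kb limit in both lines. Within 50 kb, however, Actb had 4 EpiSC peaks and no kEpiSC peak, and Actg1 had 1 in each line.

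Among the crosslinkers, which tie filaments into bundles and networks, Flnc (filamin C) and Actn4 (alpha-actinin 4) had EpiSC peaks, and Actn1 (alpha-actinin 1) and the X-linked Flna (filamin A) did not. The 4 Flnc peaks had folds of 8.47 at the promoter, 6.81 and 3.86 upstream and 4.23 in intron 1, over 15, 10, 5 and 7 reads, and none of them overlapped a kEpiSC peak. The Flnc promoter peak is the one with 3 AP-1 sites, and the peak 2276 bp upstream (chr6:29430774-29430980) held another 2. The 3 Actn4 peaks had folds of 7.06 at the promoter, 6.44 in intron 1 and 5.82 upstream. The Actn4 promoter peak was found again in kEpiSCs with a fold of 7.09 over 17 reads, against 14 reads in EpiSCs.

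Actn1 is one of 2 genes that had a kEpiSC peak and no EpiSC peak by the 10 kb rule, but it sits just beyond the limit. No share of all genes is given beside these 2, so the count is not read as particular to the members. The Actn1 kEpiSC peak lay 7853 bp upstream (chr12:80268157-80268275) with a fold of 5.60 over 9 reads. In EpiSCs the nearest peak was 10748 bp away, with a fold of 7.19 over 19 reads, and 12 EpiSC peaks lay within 50 kb of the Actn1 TSS. Fermt2 was the other gene just outside the limit in EpiSCs, at 10269 bp, while Cdc42 at 9969 bp and Rac1 at 9637 bp had peaks just inside it.

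The adhesion plaque group had 9 of 12 genes with an EpiSC peak and 3 of 12 with a kEpiSC peak, against 21.8% and 8.27% of all genes. The role groups are small, and no difference between them or between the lines was tested. Bcar1, which encodes the adaptor p130Cas that is phosphorylated at adhesions, carried the highest fold of all 49 genes, with 3 peaks within 10 kb upstream (chr8:111747836-111748326, chr8:111746891-111747320 and chr8:111746140-111746308) at folds of 12.6, 11.6 and 8.15 over 22, 21 and 18 reads. The first of these was found again in kEpiSCs, at a fold of 6.28 over 23 reads. On the scale of each list the summit stood at 22 in EpiSCs and 17.8 in kEpiSCs, and the local background at 0.819 and 2.00. These scales are not matched in depth between the lines.

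Tln1, encoding talin 1, which binds integrin tails and actin, had a peak of fold 9.26 over 13 reads in an intron of Creb3 (chr4:43564309-43564515), 1829 bp upstream of the Tln1 TSS, and a second of fold 6.66 in its own intron 1. In kEpiSCs the first was found at a fold of 5.15 over 12 reads. Src, encoding the tyrosine kinase, had 3 EpiSC peaks upstream with folds of 6.16, 6.16 and 5.29 over 8, 8 and 9 reads, and 2 kEpiSC peaks with folds of 6.45 and 6.11 over 11 reads each. None of the Src peaks overlapped between the lines, although 16 EpiSC and 7 kEpiSC peaks lay within 50 kb of its TSS.

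The other plaque genes with an EpiSC peak had folds of at most 6.20. Ptk2, encoding the focal adhesion kinase FAK, had a promoter peak of fold 6.12 over 16 reads (chr15:73423196-73423315), and Pxn, encoding paxillin, had a promoter peak of fold 6.20 over 9 reads (chr5:115506600-115506715). Lims1 (PINCH1) reached 6.16 over 8 reads, Vcl (vinculin) 5.29 over 9 reads, Zyx (zyxin) 4.68 over 12 reads and Parva (alpha-parvin) 4.34 over 6 reads. None of these 6 genes had a kEpiSC peak within 10 kb. Tln2, Ilk and Fermt2, which encode talin 2, integrin-linked kinase and kindlin-2, had no peak in either line within 10 kb, and Ilk had none within 50 kb in either line.

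In the filament assembly and turnover group 4 of 7 genes had an EpiSC peak, against 21.8% of all genes. Capzb, which encodes the beta subunit of the capping protein for barbed ends, had peaks of fold 6.81 upstream, 5.29 at the promoter and 6.84 in intron 1, over 10, 9 and 9 reads. The intron peak, 9382 bp downstream (chr4:139203424-139203562), recurred in kEpiSCs at 5.15 over 12 reads. Pfn1, encoding the monomer-binding protein profilin 1, had 3 peaks with folds of 4.34 to 5.82.

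Enah, Evl and Vasp encode the Ena/VASP proteins, which speed up growth at filament ends, and they differed from each other. Enah had an EpiSC peak of fold 6.16 over 8 reads, 8624 bp upstream, and 2 kEpiSC peaks of fold 6.31 and 6.04 over 15 and 13 reads, the second overlapping the EpiSC peak. Evl had only a promoter peak at the low end of the EpiSC list, with a fold of 3.70 over 6 reads. Vasp had a kEpiSC peak of fold 10.3 over 18 reads in its intron 1 (chr7:19267192-19267319), 4598 bp downstream of its TSS, the third highest fold of the 20 kEpiSC peaks. The EpiSC peak nearest to the Vasp TSS was 38464 bp away, at a fold of 9.29 over 14 reads. Cfl1 (cofilin 1) and Diaph1 (the formin mDia1) had no peak within 10 kb in either line.

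Of the 5 non-muscle myosin II genes, 4 had an EpiSC peak and 1 had a kEpiSC peak, against 21.8% and 8.27% of all genes. Myh9, which encodes the IIA heavy chain, had a peak of fold 9.02 over 13 reads in intron 1 (chr15:77836066-77836533) and one of 7.28 over 10 reads upstream, and no kEpiSC peak within 10 kb. The kEpiSC peak nearest to the Myh9 TSS was 21004 bp away, with a fold of 14.3 over 25 reads, and 4 lay within 50 kb. Myh10, encoding the IIB heavy chain, had the peak with the lowest fold of the 58, 3.51 over 15 reads at the promoter (chr11:68691259-68691698), where the local background was 3.56. Myl12b, encoding a regulatory light chain, had 2 EpiSC peaks of fold 5.82 and 4.76. Myl9, encoding another regulatory light chain, had no EpiSC or kEpiSC peak within 50 kb.

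The Myl12a promoter peak had the lower fold in EpiSCs. It had a fold of 3.79 over 23 reads in EpiSCs (chr17:71002556-71002800) and 8.09 over 30 reads in kEpiSCs, while the local background was 5.34 in EpiSCs and 2.00 in kEpiSCs. Myl12a encodes a regulatory light chain as well. On the scale of each list the summit stood at 23 in EpiSCs and 23.2 in kEpiSCs. The scale was set within each list, so summits and backgrounds are not matched in depth between the lines. What lies behind the difference in fold was not tested.

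Tropomyosins coat filaments, and calponin family proteins bind them. In this group 3 of the 8 genes had a peak in EpiSCs, against 21.8% of all genes. In kEpiSCs 1 of 8 had one, 12.5%, near the 8.27% of all genes. Tpm1 had a peak of fold 10.2 over 16 reads in intron 2 (chr9:67045250-67045594), 1551 bp upstream of its nearest TSS, since the gene has 2, and a second of fold 6.53. The first recurred in kEpiSCs at a fold of 5.60 over 11 reads. Tpm2 had a peak of fold 7.94 over 11 reads in intron 2, and Tagln2 (transgelin 2) one of 4.76 over 8 reads in intron 1. Tpm3, Tpm4, Cnn2, Cnn3 and Tagln had no peak within 10 kb in either line.

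Among the genes for regulators of filaments, Rock2, encoding a kinase that raises myosin phosphorylation, had a promoter peak of fold 10.4 over 28 reads (chr12:16894399-16894691), the most reads of the 58 peaks, and in kEpiSCs one of fold 4.51 over 22 reads. The Rock2 summit stood at 28 and 17.1 on the scale of the lists, and its background was 1.78 in EpiSCs and 3.00 in kEpiSCs. Its relative Rock1 had no peak within 50 kb in either line.

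Rac1, whose GTPase drives lamellipodia, had an intron 1 peak 9637 bp downstream of its nearest TSS with 14 reads in EpiSCs and 20 in kEpiSCs. Limk1, whose kinase inactivates cofilin, had 2 EpiSC peaks, at 10.3 over 14 reads upstream (chr5:134695259-134695457) and at 5.83 over 9 reads in intron 2. In kEpiSCs only the second was found, at a fold of 8.16 over 18 reads. Limk2, encoding the related kinase, had folds of 6.88, 6.16, 3.67 and 3.54, and the first recurred in kEpiSCs at 7.86 over 19 reads beside another of 4.88 over 8 reads. The pair with the lowest folds had local backgrounds of 4.45 and 2.67.

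Cdc42, whose GTPase drives filopodia and polarity, had EpiSC peaks of fold 5.04 and 4.68 over 13 and 8 reads, and a kEpiSC peak of fold 3.69 over 13 reads, the lowest of the 20 kEpiSC folds. Rhob had an EpiSC promoter peak of fold 4.68 over 12 reads and no kEpiSC peak, and Rhoa, which encodes the GTPase upstream of ROCK, had none in either line within 10 kb. Of the ERM linkers, which join filaments to the membrane, Ezr (ezrin) had a promoter peak in both lines, of fold 7.53 over 15 reads in EpiSCs (chr17:6782631-6782881) and 6.31 over 15 reads in kEpiSCs. Rdx (radixin) and the X-linked Msn (moesin) had no peak within 10 kb. Chromosome X held 96 of the 16166 EpiSC peaks and 31 of the 6032 kEpiSC peaks.

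**Figure D3:**
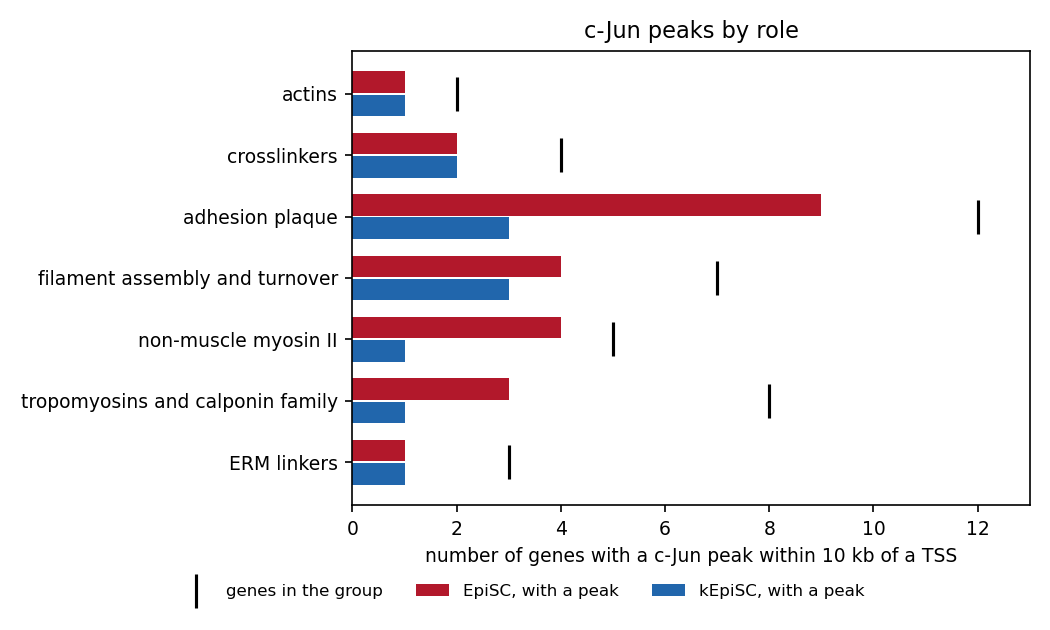
Bars show the number of genes that had a peak by the 10 kb rule in a role group, in EpiSCs (red) and kEpiSCs (blue), and the black tick gives the number of genes in the group. The adhesion plaque group had 9 of 12 genes with a peak in EpiSCs and 3 of 12 in kEpiSCs, and 7 role groups are drawn. Over all protein-coding genes the shares with a peak were 21.8% in EpiSCs and 8.27% in kEpiSCs.

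The kEpiSC peaks were for the most part at places that also had an EpiSC peak. Of the 20 kEpiSC peaks near these genes 14 overlapped an EpiSC peak by at least 1 bp, 70.0% (48.1 to 85.5), against 68.9% over kEpiSC peaks near protein-coding genes and 75.8% over the list. Of the 58 EpiSC peaks 14 overlapped a kEpiSC peak, 24.1% (15.0 to 36.5), against 23.2% and 28.3%. The overlap rose with height in the members as in the other peaks near genes: in 4 equal parts of the EpiSC list from the lowest to the highest fold, 1 of 19, 2 of 11, 5 of 17 and 6 of 11 member peaks overlapped, against 10.8%, 13.5%, 22.5% and 55.9% of peaks near genes. These shares follow from lists of unequal length. Of the 15 genes with a peak in both lines, 14 had an overlapping pair, and Src had none.

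In the 14 overlapping pairs the kEpiSC fold was lower in 8 and higher in 6, and over the 1200 pairs near protein-coding genes it was lower in 55.5%. The lowest and highest of the members' EpiSC folds in these pairs were 3.79 and 12.6 with a median of 7.29, and the kEpiSC folds ran from 3.69 to 10.8 with a median of 6.30. Both lists were called separately with their own input, and with backgrounds of a few reads or less a single input read changes a fold, so no difference in fold between the lines was tested.

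**Figure D4:**
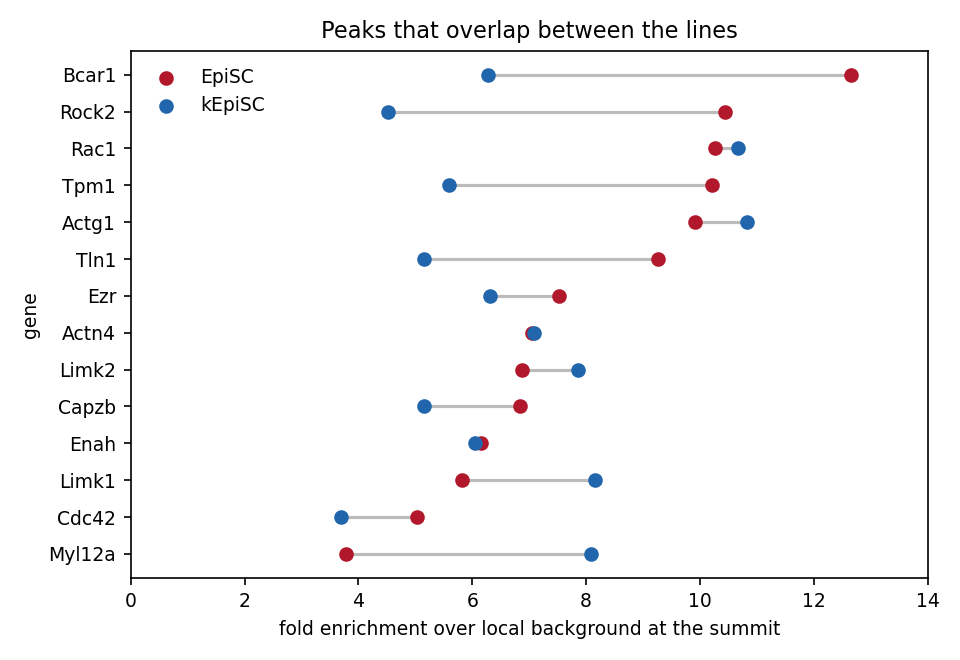
For the 14 overlapping pairs, the fold enrichment at the summit in EpiSCs (red) and kEpiSCs (blue) is plotted by gene, and a grey line joins the pair. Bcar1 went from 12.6 to 6.28, Rock2 from 10.4 to 4.51, and Myl12a from 3.79 to 8.09.

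The EpiSC peaks were placed by the annotation. Promoters, taken as 1000 bp upstream to 100 bp downstream of a TSS of any protein-coding gene, held 15 of the 58 peaks, 25.9% (16.3 to 38.4), against 28.2% of the 5180 peaks near protein-coding genes. Introns held 21, 36.2%, against 36.0%, and 22, 37.9% (26.6 to 50.8), lay between genes, against 28.4%. None lay in a coding or untranslated exon outside a promoter, which allows a share of up to 5.17% by the rule of 3 counts and 6.21% by the Wilson interval, while 7.47% of the peaks near protein-coding genes did. This difference was not tested. The median distance from the TSS was 2494 bp over the 59 pairs and 3206 bp over all 6347 pairs of a gene and a peak.

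An AP-1 site was found in the central 200 bp of 21 of the 58 EpiSC peaks, 36.2% (25.1 to 49.1), close to the 35.7% of peaks near protein-coding genes and below the 45.9% of the whole list. In flanking windows of the same length 2000 bp away it was found in 6.90% of the members' peaks and 3.69% of the others. Peaks that were found again in kEpiSCs held it in 9 of 14, against 12 of 44 of the rest, and over peaks near protein-coding genes in 52.0% and 30.8%. In kEpiSCs 9 of 20 peaks held it, 45.0% (25.8 to 65.8), against 49.2% near protein-coding genes.

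At promoters 5 of the 15 EpiSC peaks held an AP-1 site, 33.3% with an interval of 15.2 to 58.3, against 15.1% (13.4 to 17.1) of the 1460 promoter peaks of all genes. Away from promoters it was 16 of 43, 37.2%, against 43.8%. The intervals of the members and of all genes overlap in both cases. TGACGTCA was found in 1 of 58, the Myh10 promoter peak, against 3.42% of peaks near genes. GGAATG and its reverse complement CATTCC, the core bound by TEAD factors, which regulate adhesion genes together with YAP, were found in 9 of 58 peaks, 15.5%, against 15.1%. None of the 9 peaks was at a promoter. With 15 promoter peaks this allows a share of up to 20.0% by the rule of 3 counts and 20.4% by the Wilson interval. Over the 1460 promoter peaks of all genes the share was 10.3%, which lies below both limits. The absence from promoter peaks is therefore not read as particular to the members.

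**Figure D5:**
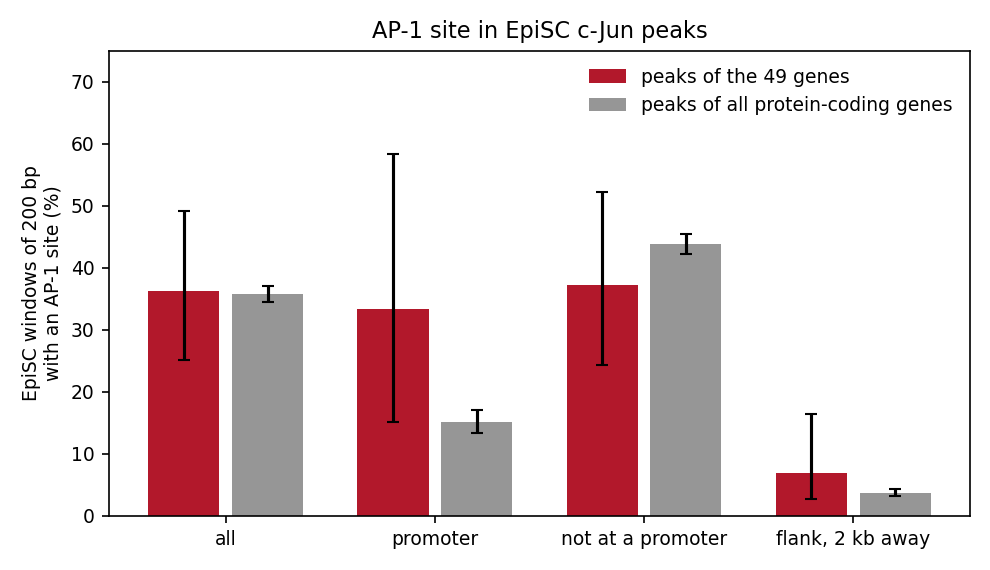
The bars give the percentage of 200 bp windows of EpiSC peaks with an AP-1 site, for the peaks of the 49 genes (red) and of all protein-coding genes (grey), with 95% Wilson intervals. The members' promoter peaks reach 33.3% against 15.1%, with a wide interval, and the bars of the flanking windows stay below 10%.

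The CArG box, the motif of SRF, was found at the start sites of some of these genes. It was not found in the central 200 bp of their c-Jun peaks. RefSeq sequences that span the TSS of a gene could be matched for 40 of the 49 genes, and 5 of them, Actg1, Cnn2, Fermt2, Myl9 and Vcl, held a CArG box, 12.5%, against 1.75% of 16853 protein-coding genes. In the central 200 bp of the 58 EpiSC peaks there were 0, which allows up to 5.17% by the same rule of 3 counts, against 1.06% of peaks near genes. The 1.06% lies below that limit, so the absence from the peaks is not read as particular to the members. Of the 5 genes, Actg1 and Vcl had a c-Jun peak within 10 kb. The AP-1 site was in the promoter sequence of 3 of the 40, Ezr, Myl12a and Zyx, 7.50% against 5.50%, and each of these had a promoter peak in EpiSCs. A match is a string of letters and does not show that a factor binds.

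The other genes of the actin and adhesion machinery, 78 genes in 8 groups that are not among the 49, had an EpiSC peak in 33 cases, 42.3% (32.0 to 53.4), against 23.3% of genes of the same length, and a kEpiSC peak in 15, 19.2% (12.0 to 29.3), against 8.77%. Csrp1, a LIM domain protein at adhesions, had an intron peak of fold 18.0 over 28 reads, and Gsn (gelsolin, which severs filaments) one of 14.4 over 20 reads, both above the highest fold of the 49 genes. Other high folds were at Diaph3 (11.6 over 16 reads) among the formins, at Actr2 (10.4 over 20 reads) in the Arp2/3 complex and at Wasf2 (9.58 over 13 reads), a WAVE protein. The group with the lowest share was that of the WASP and WAVE nucleation promoters, with 1 of 9 genes, against 21.8% of all genes. Of the Arp2/3 subunits 3 of 9 had one, and the Actr2 peak recurred in kEpiSCs at a fold of 11.4 over 28 reads. Mrtfa and Mrtfb, which encode the actin-sensing cofactors of SRF, had EpiSC peaks of fold 6.12 and 8.21 over 16 and 11 reads, and Mrtfa had a kEpiSC peak of fold 8.89 over 17 reads.

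Within 50 kb, 45 of the 49 genes had an EpiSC peak and 28 had a kEpiSC peak, against 50.7% and 27.0% of all genes, which left 4 genes without an EpiSC peak and 21 without a kEpiSC peak. The 4 genes without an EpiSC peak in 50 kb were Flna, Myl9, Rock1 and Ilk. The genes with an EpiSC peak had a median length of 41357 bp, and those without one 28252 bp.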

How the data were processed

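c-Jun ChIP-seq of 2 mouse lines was used, with 2 ChIP and 2 input libraries each. Mapping to mm10 (Bowtie2), a filter for uniquely mapped reads and peak calling (MACS2, default settings) were done by the authors. bcl2fastq, SAMtools and bedtools are also listed in the submitters' processing notes. The versions of these tools were not given in the sources used here. Only 1 list was deposited per line. It is taken to pool both replicates, but the label that names it belongs to ChIP replicate 1, so it may come from that library alone. For each peak the deposited list holds a score, the fold enrichment (a ratio to local background), p and q as −log10 values and the offset of the summit in bp. The reads in each library were not analysed here.

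The 49 genes and the comparison lists were chosen with earlier results of these data known. TSSs came from curated RefSeq transcripts (GRCm38.p6, the mm10 assembly), and genes were matched by symbol. For genes of the same length, each member took the share of all genes in its class of 10 classes of length, and no gene was drawn. Fold and p-value were solved together for reads at the summit and background, within 0.01 in −log10 p for 100% of EpiSC and 99.6% of kEpiSC peaks, including all 58 and 20 peaks of the members, with 1 kEpiSC read worth 0.775 in the list's pileup. The reads at the summit, 5 to 30, set the precision of each fold. Both strands of the middle 200 bp of each peak were searched for motifs. Values are named for the 4 highest-scoring members of each role group, members with a kEpiSC peak or 3 or more peaks, and the highest other genes, and the remaining members with values, and the promoter sequences, were added after their values were seen. The work used pysam 0.24.0, pandas 2.3.3, matplotlib 3.10.9, scipy 1.17.1, numpy 2.4.6 and Python 3.11.15, and the functions were tested on simulated data. Other distances, assignments to the nearest TSS, higher-scoring peaks, transcripts, summits, windows, length classes and overlap rules were tried. The counts for 1 role group of the members and 1 group of the other genes are not reported here.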

Additional observations from a re-analysis of the deposited data

How the results depend on the processing

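Of 48 values recomputed under other settings, 36 stayed within their interval or, for a count, within 1.5 times, and 12 moved by more. The recomputed ratios to genes of the same length were all 1.72 or more. For the other values a change of direction was not assessed. The 36 include 2 counts that moved by exactly 1.5 times, the genes with an EpiSC peak at 50 kb (45) and those with a peak in both lines at 5 kb (10). With only the peaks at or above the median score, 15 of the 49 genes had an EpiSC peak (10.9% of all genes), 8 a kEpiSC peak (4.07%) and 6 both. Under the same setting the AP-1 site was in 54.5% of the members' EpiSC peaks, and 45.5% of them overlapped a kEpiSC peak. No share over all higher-scoring peaks or all genes is given beside these values or the 6 genes. They are therefore not read as particular to the members. Over all peaks near genes the overlap also rose with fold, to 55.9% in the highest of 4 parts of the list. The ratio to genes of the same length in EpiSCs was 3.15 at 5 kb, 1.72 at 50 kb and 1.87 where each peak went to its nearest TSS at any distance, and in kEpiSCs it was 2.01 at 50 kb and 2.01 for the nearest TSS. At 50 kb 28 genes had a kEpiSC peak and 28 had one in both lines, for which no share of all genes is given. The fall of the ratio at 50 kb goes with the larger share of all genes that then have a peak, 50.7% in EpiSCs. No paired analysis was possible because 1 list per line carries no replicates, so leaving out a replicate was not possible either. The number of reads at a summit limits which peaks can be told apart in height.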
